A study of Mus musculus and Homo sapiens with 90 samples.

Results

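The regions described here were active in the liver of conventional mice and near or below the level of negative controls in the liver of germ-free mice, by mean counts. They number 2064 of the 52205 test regions that could be judged in both livers (3.95%), out of 103435 test regions in all when each sub-library is counted apart. They were selected on the very contrast between the 2 livers, so their levels in both livers are a description. HepG2 and Hep3B cells supply the independent measurements. Liver libraries left out of the choice supply further ones, though they still shaped which regions were listed.

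Activity was measured by a massively parallel reporter assay (MPRA), in which each candidate regulatory region is joined to a reporter transcript that identifies it. RNA counts per region give the transcripts made, and DNA counts give the copies of the plasmid present. An enhancer raises the RNA relative to the DNA when the factors that bind it are present in the cell. Hepatocytes are rich in such factors, and the liver receives portal blood that carries products of the gut microbiota, which a germ-free animal lacks.

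The livers came from C57BL/6 mice, either conventional (no treatment entry in the labels) or germ-free, and no further allele, sex or age is used here. The assay was split over 5 sub-libraries. Conventional liver had 4 RNA and 4 DNA libraries in sub-libraries 1 and 4, 2 of each in sub-libraries 2 and 3, and 3 of each in sub-library 5, and germ-free liver had 3 of each throughout. HepG2, a human liver cancer line labelled p53-WT, had 2 RNA libraries in sub-library 1, 3 in each other one, and 1 DNA library per sub-library. Samples titled Hep3B, another human liver cancer line, had 2 RNA libraries and 1 DNA library of sub-library 2. Their genotype entry is p53-null, but HepG2 stands in the fields for source and cell line.

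Activity, written A, is the log2 ratio of mean RNA CPM to mean DNA CPM, each with 1 CPM added (CPM is a count scaled to the library total), minus the median of the negative controls of the same table. An A of 0 is therefore the level of a typical negative control. The controls listed differed between the livers, with 212 (conventional) and 1834 (germ-free) in sub-library 2. Their medians there, taken off each A, were -1.215 (conventional) and -0.595 (germ-free). In sub-library 5 these medians were -1.242 and -1.656. The share of regions that pass the rule in a sub-library depends on these medians too. A region belonged to the set when A was at least 1.5 in conventional liver and under 0.5 in germ-free liver, with DNA counts averaging 50 or more in the tables of both livers. The library names of conventional liver start with AML and those of germ-free liver with GIS, apart from the germ-free DNA of sub-library 5, so the kind of mouse and this naming cannot be told apart. Every table lists regions only from an RNA count of 10 in each library. Of the 12059 test regions with A of at least 1.5 and enough DNA in conventional liver, 701 were not listed in the germ-free tables and could not enter the set.

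Conventional RNA libraries held 1172822 to 6627375 counts and germ-free ones 2740171 to 25625463, while HepG2 RNA libraries held 1720314 to 8202279 and Hep3B ones 9394679 to 17696987. RNA replicates of a table correlated at r of 0.63 to 0.95 (conventional), 0.66 to 0.95 (germ-free) and 0.78 to 0.98 (HepG2). The loosest conventional pair was that of sub-library 2, whose table lists 4606 regions. The labels do not say whether replicates were separate animals or cultures, so every p-value here measures the spread between these libraries.

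Members were present in all 5 sub-libraries, and their share of judged regions was lowest in sub-library 3 (2.22%) and highest in sub-library 2 (6.88%). Sub-library 1 held 480 members, sub-library 2 held 292, sub-library 3 held 181, sub-library 4 held 437 and sub-library 5 held 674. They made up 18.3% of the 11261 judged regions with A of at least 1.5 in conventional liver, against 6572 regions that reached 1.5 in both livers. By sub-library that share was 17.7%, 24.7%, 10.0%, 16.1% and 23.6% in sub-libraries 1 to 5. Sub-library 2 had the fewest judged regions (4245), and by this measure it was close to sub-library 5. Names of the EH38D form made up 2062 members and EM10D names 2.

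Negative controls passed the same rule in 52 of 3463 cases (1.5%). The margin over negative controls was not the same everywhere. In sub-library 1 the shares were 3.37% of test regions and 0.68% of negative controls, and in sub-library 5 they were 5.24% and 1.57%. In sub-library 2 they were 6.88% and 2.48%, and in sub-library 4 they were 3.44% and 1.11%. In sub-library 3 negative controls passed more often than test regions, at 3.77% (17 of 451) against 2.22%. With the livers exchanged, 4813 test regions (9.22%) and 204 negative controls (5.89%) passed, and 2718 of those test regions came from sub-library 5. In sub-library 2 alone, negative controls passed the exchanged rule more often than test regions, at 10.9% against 10.3%.

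The median member had an A of 2.24 in conventional liver, with quartiles at 1.81 and 3.00 and a highest value of 6.25. In germ-free liver the median was -0.10, with quartiles at -0.67 and 0.23 and a lowest value of -3.78, and 1166 members lay below the median negative control. The median difference between the livers was 2.61. For judged test regions as a whole the medians were 0.32 (conventional) and 0.77 (germ-free), the other way round.

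**Figure D1:**
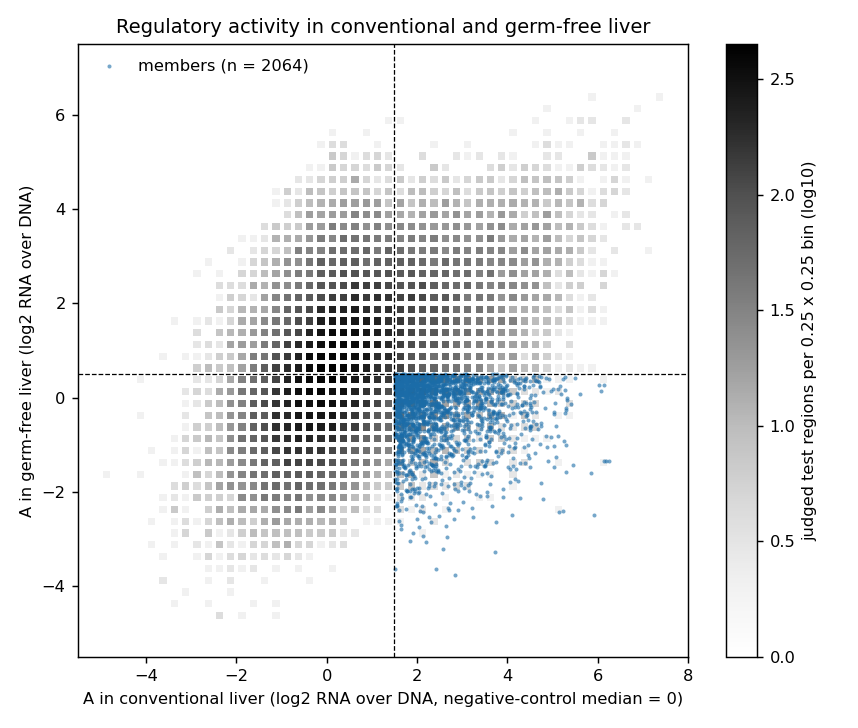
Each grey square counts the judged test regions in a 0.25 by 0.25 bin of A in conventional liver (x axis, log2) and A in germ-free liver (y axis, log2), and blue points are the 2064 members. Dashed lines mark the thresholds of 1.5 and 0.5, and most members crowd the corner where the lines meet, with tails to 6.25 on the x axis and -3.78 on the y axis.

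The members at the edge show how little separates them from the rest. EH38D3313842sub5 was the last one inside the conventional threshold, with A of 1.21, 1.65 and 1.89 in its conventional libraries and -0.25, -0.43 and 0.15 in its germ-free libraries. EH38D3129827sub1 fell just outside it, with 1.36, 1.82, 1.69 and 1.19 in conventional libraries against 0.55, -1.30 and -0.88 in germ-free ones. At the germ-free threshold EH38D5943605sub3 was just inside at 0.4999 and EH38D3783717sub2 just outside at 0.5001. Both of these were strongly active in conventional liver, at 3.71 and 3.41.

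Single libraries carried the picture to different degrees. Every conventional RNA library stood above every germ-free one in 2001 members (96.9%), against a background of 19.4% of judged test regions. The edgeR quasi-likelihood test of the difference in RNA over DNA called 1989 of 2064 members lower in germ-free liver at an adjusted p under 0.05 and 0 higher, where 20.7% and 18.6% of all regions tested were called lower and higher. The rule used this contrast, so nothing is read from either count. A stricter reading asks that each conventional library reach 1.5 and each germ-free library stay under 0.5 on its own, and 834 members (40.4%) met it. This share was 29.8% in sub-library 1, 40.8% in sub-library 2, 32.6% in sub-library 3, 38.0% in sub-library 4 and 51.5% in sub-library 5.

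Within these 834, the members with the largest difference came first from sub-library 5. EH38D4959880sub5 gave conventional A of 6.16, 5.88 and 6.01 and germ-free A of -1.70, -2.76 and -3.24, a difference of 8.41 between the tables. All 3 of its germ-free RNA libraries held 31 to 55 counts at a mean DNA count of 517, so the plasmid was well represented where the transcript was scarce. EH38D5035621sub5 had the highest conventional activity of any member, at 6.50, 6.01 and 6.51, against -0.90, -1.44 and -1.66 in germ-free liver. EH38D5084508sub5 read 5.30, 4.89 and 5.76 against -1.37, -3.49 and -2.79. Its mean DNA counts were 2455 and 2459 in the 2 livers. Since these regions were taken from members that met the thresholds in every library, their groups could not overlap.

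In sub-library 4, EH38D4636446sub4 reached 5.69, 5.63, 4.92 and 4.97 with a microbiota and -2.17, -1.01 and -1.58 without. EH38D2575372sub4 read 4.63, 4.05, 4.28 and 3.31 against -1.67, -2.49 and -3.39. EH38D2603155sub4 read 4.77, 4.89, 5.28 and 5.22 against -1.38, -1.05 and -1.81. The lowest conventional library of these 3 regions thus stood at 3.31 and the highest germ-free one at -1.01.

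Sub-library 1 gave similar profiles at a slightly lower conventional level. EH38D5220109sub1 had 4.44, 5.03, 4.17 and 4.36 against -0.99, -1.11 and -1.60. EH38D2229158sub1 had 3.50, 4.04, 3.03 and 3.00 against -1.58, -3.46 and -1.54, with 1 germ-free library well under the other two. EH38D5434785sub1 had 4.57, 5.27, 4.69 and 4.53 against -0.44, -0.88 and -0.28. Its germ-free values lay closest to 0 of these 3 regions.

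Sub-libraries 2 and 3 rest on 2 conventional libraries each. In sub-library 2, EH38D3714938sub2 read 4.03 and 4.74 against -1.47, -3.38 and -2.20, and EH38D3645562sub2 read 3.46 and 4.27 against -2.50, -2.48 and -2.87. EH38D3876873sub2 read 4.57 and 5.43 against -0.38, -2.999 and -1.92, the widest germ-free spread of the 3. In sub-library 3, EH38D5962129sub3 read 3.91 and 4.29 against -2.13, -1.43 and -1.72. EH38D5965841sub3 read 4.10 and 3.99 against -1.21, -0.30 and -0.14, and EH38D5983275sub3 read 3.68 and 3.46 against -1.13, -0.28 and -0.98. In none of the 15 regions did a conventional library fall below 3.00, where the choice already required at least 1.5 of every one.

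**Figure D2:**
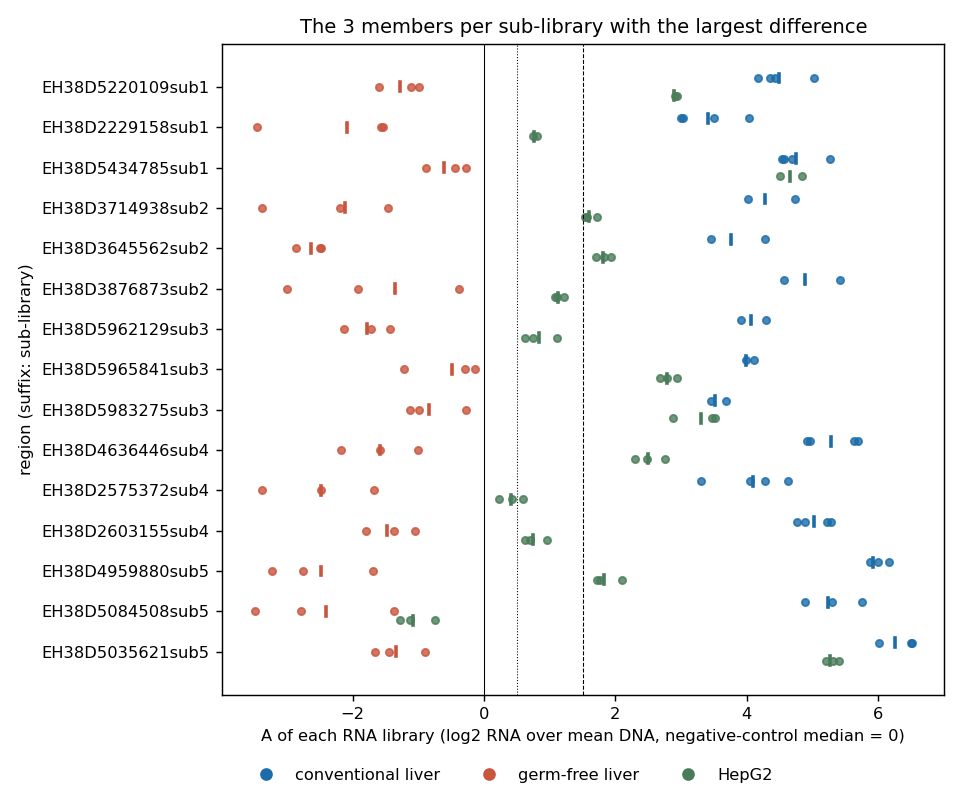
A of each RNA library (x axis, log2 RNA over mean DNA) is shown as a point for the 3 members per sub-library with the largest difference between the livers, in conventional liver (blue), germ-free liver (red) and HepG2 (green). Short bars mark A of the table, and the sharpest contrast is EH38D4959880sub5, at 5.92 (conventional) and -2.48 (germ-free), while the HepG2 points of the 15 regions range from below 0 to beyond 5.

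Other members depended on a single library. EH38D5578681sub2 drew 98.2% of its conventional RNA CPM from 1 library, with A of -2.75 in one and 3.52 in the other. EH38D5668312sub2 read -1.72 and 3.97, and EH38D3910268sub2 read 2.23 and -1.27. None of the 3 was called between the livers by edgeR, at adjusted p of 0.057, 0.25 and 0.37, and leaving out the high library turned the sign of each difference. Across the set, 1720 members (83.3%) still reached 1.5 without their own highest conventional library, with the lowest shares in sub-libraries 3 (66.9%) and 2 (74.3%) and the highest in sub-library 4 (90.4%).

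To measure the same quantity in libraries the rule did not use, each liver library was left out in turn, with its DNA library. The set was chosen again from the rest, and A was read in the library left out. Conventional activity carried over. In the 15 conventional libraries left out, 45.4% to 94.7% of the regions chosen without them reached 1.5, against 17.9% to 34.8% of all judged test regions. Their median A there was 1.35 to 2.80, and the lowest share was that of sub-library 3, replicate 2.

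Low germ-free activity carried over less evenly. In the germ-free libraries left out, 42.7% to 95.8% of the regions chosen without them stayed under 0.5, where 31.3% to 55.1% of all judged regions did. Replicates 2 and 3 of sub-library 2 kept 91.8% and 92.9%, and replicate 2 of sub-library 5 kept 95.8%. Replicate 1 kept at most 57.6% in any sub-library, at 55.6%, 42.7%, 57.2%, 53.1% and 57.6% in sub-libraries 1 to 5, where 48.1%, 35.7%, 37.3%, 44.9% and 31.3% of all judged regions stayed under 0.5. Replicate 3 of sub-library 1 kept 51.3%, against 44.1%. In sub-library 3 replicates 2 and 3 kept 56.2% and 57.8%, against 45.5% and 55.1% of all judged regions. The median germ-free A of chosen regions in the library left out ran from -0.72 to 0.65, the latter in replicate 1 of sub-library 2 and above the threshold. The shares of chosen and of all judged regions lie closest together in replicate 3 of sub-library 3.

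**Figure D3:**
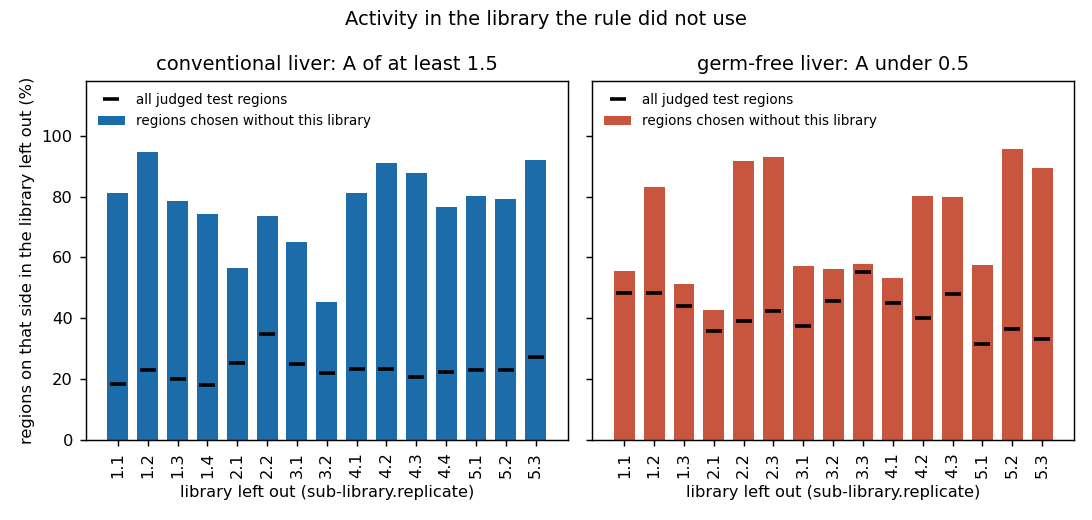
For each liver library left out (x axis, sub-library and replicate), bars give the percentage of regions chosen without it that met the threshold in it, at 1.5 or more in conventional liver (left) or under 0.5 in germ-free liver (right), and black dashes give the same for all judged test regions. Every bar stands above its dash, by the least in germ-free replicate 3 of sub-library 3 at 57.8% against 55.1%.

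HepG2 measured the same regions in human liver cancer cells and took no part in the choice. Of the members, 1993 were listed in the HepG2 tables. Their median A was 1.30, with quartiles at 0.58 and 2.11 and a range of -2.21 to 5.93, while judged test regions had a median of 0.48. An A of at least 1.5 was reached by 868 members (43.6%), against 19.7% of judged test regions. A further 667 lay between 0.5 and 1.5, and 458 (23.0%) lay under 0.5, where 50.7% of judged test regions lay. By sub-library the share at 1.5 or more was 47.9% of members against 20.1% of judged regions in sub-library 1, 48.8% against 31.5% in 2, 32.2% against 20.7% in 3, 49.7% against 20.9% in 4 and 36.9% against 12.4% in 5.

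The edgeR test of RNA against DNA in HepG2 called 1046 of 1993 members higher at an adjusted p under 0.05 (52.5%), against 17.3% of all regions tested, and 53 lower (2.66%), against 12.6%. The share of members called higher was lowest in sub-library 1, at 42.3% against 10.9% of all regions tested there, and highest in sub-library 2, at 69.6% against 22.8%. The median log2 RNA over DNA of members in this fit was 1.11, against -0.02 for all regions. HepG2 has 1 DNA library per sub-library, so the spread in these tests comes from the RNA libraries.

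Regions active in both livers were more active in HepG2 than the members, with a median A of 1.65 and 54.6% at 1.5 or more. They were also more active in conventional liver, with a median of 2.71. Within ranges of conventional activity the gap was narrow in the lowest range and wider in the upper ones. For conventional A of 1.5 to 2 the HepG2 medians were 1.08 for 727 members and 1.13 for 1465 regions active in both livers. From 2 to 3 they were 1.31 and 1.42, from 3 to 4 they were 1.63 and 1.90, and from 4 up they were 2.14 and 2.56. Regions that passed with the livers exchanged had a HepG2 median of 0.06, and 5.83% of them reached 1.5. Of the 4068 listed in HepG2, 2151 came from sub-library 5, where their median was -0.15 against 0.18 for judged regions. In sub-libraries 1 to 4 their medians were 0.27 to 0.39, against 0.52 to 0.88. No test was run on the differences between these sets.

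**Figure D4:**
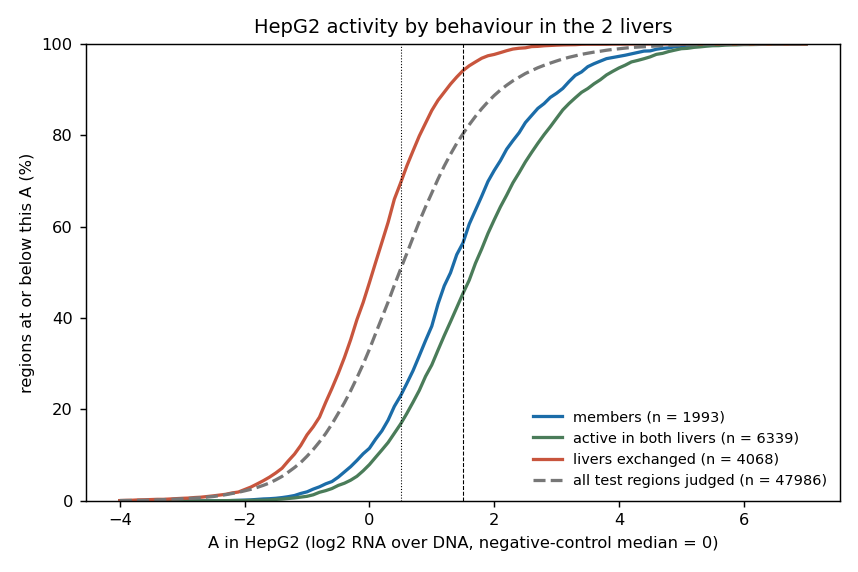
Cumulative percentage of regions (y axis) at or below each A in HepG2 (x axis, log2) for 1993 members, 6339 regions active in both livers, 4068 regions that passed with the livers exchanged and all 47986 judged regions listed in HepG2. The members' curve lies between that of regions active in both livers and that of all judged regions, with medians of 1.30, 1.65 and 0.48, and the exchanged set lies lowest in activity at 0.06. Of the exchanged set, 2151 regions come from sub-library 5.

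Across members, conventional and HepG2 activity went together only loosely. Pearson's r was 0.27 over 1993 members (0.17 to 0.39 within sub-libraries) and 0.61 over 47986 judged regions, and Spearman's rho was 0.24 and 0.58. These are descriptions across regions, which share the libraries of each table, and the rule itself narrows the range of conventional activity. With germ-free activity, r among members was 0.11.

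Among members with a HepG2 DNA count of at least 50, sub-library 2 held 4 of the 5 most active in HepG2. EH38D5572448sub2 had HepG2 A of 6.13, 5.91 and 5.83, with conventional A of 4.46 and 4.43 and germ-free A of 1.18, -1.18 and -0.31. Its germ-free libraries lie on both sides of the threshold. EH38D5812917sub2 had 5.85, 5.61 and 5.59, EH38D5457458sub2 had 5.61, 5.30 and 5.36, and EH38D5784227sub2 had 5.61, 5.35 and 5.29. EH38D4870998sub4 followed at 5.23, 5.53 and 5.45, with a conventional A of 5.05 and a germ-free A of -0.11. In conventional liver these 5 regions, chosen for their HepG2 level, stood at 2.79 to 5.05.

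At the other end, under the same DNA minimum, members active in conventional liver were below the median negative control in HepG2. EH38D4065853sub3 had HepG2 A of -2.52, -1.96 and -2.17 against 1.77 and 2.31 in conventional liver. EH38D5980741sub3 had -2.08, -2.12 and -2.28 against 2.60 and 2.44, and EH38D3932370sub3 had -1.32, -2.28 and -2.22 against 2.74 and 2.16. EH38D3007317sub5 had -1.83, -2.24 and -1.93, and EH38D5277724sub1 had -2.38 and -1.59. All 5 were called lower in RNA than DNA in HepG2 by edgeR, with adjusted p of 0.022 for EH38D5277724sub1 and 0.0041 or less for the other four. The 3 sub-library 3 regions had HepG2 DNA counts of 520 to 801, so the low ratio rests on well covered plasmids.

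The 15 members with the largest difference between the livers were also mixed in HepG2. EH38D5035621sub5 was active there at 5.21, 5.31 and 5.41, EH38D5434785sub1 at 4.51 and 4.84, and EH38D5983275sub3 at 3.52, 3.47 and 2.88. EH38D5084508sub5, at 5.24 in conventional liver, read -1.13, -1.29 and -0.75 in HepG2. EdgeR called it lower in RNA than DNA there, with a log2 ratio of -1.13 ± 0.25 (SE, n = 3) and an adjusted p of 0.00024. EH38D2575372sub4 read 0.43, 0.59 and 0.23 and EH38D2603155sub4 0.70, 0.96 and 0.62, and neither passed the HepG2 test (edgeR adjusted p of 0.67 and 0.22).

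Hep3B was measured in sub-library 2 alone, where 288 of the 292 members were listed. Their median A was 0.62, close to the 0.60 of judged test regions of that sub-library, while in HepG2 the same comparison gave 1.44 against 0.88. An A of at least 1.5 was reached in Hep3B by 77 members (26.7%), against 26.4% of judged test regions, and in HepG2 by 141 of 289 (48.8%), against 31.5%. Both lines together were at 1.5 or more for 65 members. Regions active in both livers reached 1.5 in Hep3B in 63.6% of cases. The Hep3B DNA library holds 1700473 counts and a median of 35 per member, and among the 98 members with a Hep3B DNA count of at least 50 the share was 32.7%, against 18.3% of judged regions so covered.

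The edgeR test of RNA against DNA in Hep3B called 98 of 288 members higher (34.0%), against 22.7% of all regions tested, and 11 lower (3.82%), against 12.8%. Hep3B and HepG2 were then compared in 1 model over 286 members. Each line has 1 DNA library, so the spread in this test and in that of Hep3B alone comes from the RNA libraries. RNA over DNA was lower in Hep3B in 62 members (21.7%, edgeR adjusted p under 0.05), against 5.6% of all regions tested, and higher in 16 (5.59%), against 5.09%. The median log2 difference, Hep3B over HepG2, was -0.58 among members and 0.12 over all regions. Without HepG2 replicate 2 the lower calls fell to 41 (14.3%, against 3.24% of all regions in that fit) and the higher ones to 7 (2.45%, against 3.00%). With a DNA minimum of 50, 26 of 98 members were lower (26.5%, against 9.47%) and 13 higher (13.3%, against 12.0%). The share of higher calls among members is near the background in all 3 fits.

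Among members with at least 50 DNA counts in both lines, the largest of these differences came from regions that HepG2 read strongly and Hep3B did not. EH38D5784227sub2 stood at -0.998 and -0.60 in the 2 Hep3B libraries against 5.61, 5.35 and 5.29 in HepG2, a log2 difference of -6.20 ± 0.12 (SE, edgeR adjusted p = 3.7e-07). EH38D3585405sub2 stood at -0.96 and -1.14 against 4.62, 4.87 and 5.00, a log2 difference of -5.90 ± 0.51 (SE, edgeR adjusted p = 0.00036). In conventional liver they read 2.43 and 3.36, and 1.54 and 2.89. Neither region was active in Hep3B, germ-free liver held them at 0.49 and -0.84, and the Hep3B libraries lie far below those of HepG2.

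Differences in the other direction were smaller. EH38D3734322sub2 reached 2.83 and 3.13 in Hep3B against 1.55, 1.63 and 1.67 in HepG2, a log2 difference of 1.41 ± 0.28 (SE, edgeR adjusted p = 0.015). EH38D5713331sub2 reached 1.07 and 1.56 against 0.12, -0.25 and 0.15, a log2 difference of 1.35 ± 0.31 (SE, edgeR adjusted p = 0.030). Both calls were lost with scaling on negative controls alone and without HepG2 replicate 2. In conventional liver these 2 regions read 1.83 and 3.08, and 2.57 and 1.36, so their liver libraries were also apart.

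**Figure D5:**
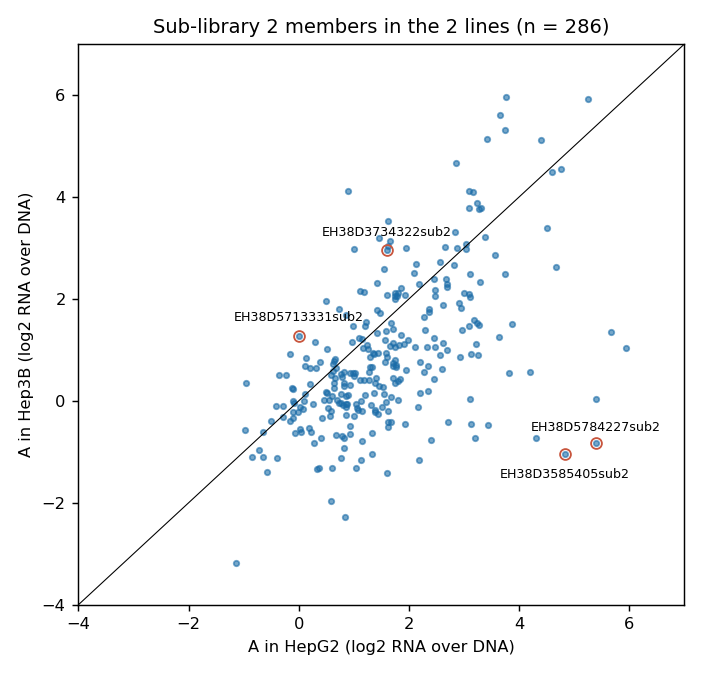
A in Hep3B (y axis, log2) against A in HepG2 (x axis, log2) for the 286 sub-library 2 members listed in both lines, with the line of equal activity. Red rings mark the 2 highest and 2 lowest differences among members with at least 50 DNA counts in both lines, from EH38D5784227sub2 at 5.39 in HepG2 and -0.84 in Hep3B to EH38D5713331sub2 at 0.00 and 1.28.

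A few members carry names that other sub-libraries also list, which gives the same name in further libraries. These 5 members share 4 names, and a value that met the rule again there was selected by it too. EH38D3158852 met the rule in sub-library 1, at 3.75 (conventional) and 0.14 (germ-free), and again in sub-library 4, at 3.98 and 0.45. Its germ-free libraries lay on both sides of the threshold. They read -1.58, 0.77 and 0.49 in sub-library 1, the lowest from 13 RNA counts. In sub-library 4 they read 1.15, 0.48 and -0.22. In sub-library 3 EH38D3158852 read 1.32 and 0.97, and in sub-library 5 it was active in both livers at 2.45 and 3.17. In sub-library 2, where conventional liver does not list it, germ-free A was 1.10 (0.70 to 1.32 over 3 libraries). The edgeR log2 difference, germ-free over conventional, was -3.86 ± 0.50 and -3.72 ± 0.41 (SE) in sub-libraries 1 and 4 and 0.08 ± 0.54 (SE, adjusted p = 0.92) in sub-library 5. HepG2 read it alike throughout, from 2.79 to 3.59 in all 5 sub-libraries.

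EM10D2183391 met the rule in sub-library 1 at 2.29 and 0.34. In the others its germ-free A was 1.24, 1.49, 1.90 and 1.87 in sub-libraries 2 to 5, so it was above 0.5 in each. The germ-free value was below the conventional one in sub-libraries 4 and 5 (edgeR adjusted p of 0.0013 and 0.021) and above it in sub-library 3 (1.49 against 0.71, edgeR adjusted p of 0.28). Its HepG2 activity also changed with the sub-library, with a lowest value of -1.71 (sub-library 3) and a highest of 1.33 (sub-library 2).

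EM10D2104529 met the rule in sub-library 5, with conventional A of 2.10, 0.75 and 2.56 and germ-free A of 0.04, 0.33 and 0.30. In sub-library 4 it read 2.77 and 0.64, just over the germ-free threshold, with a log2 difference of -2.30 ± 0.26 (SE, edgeR adjusted p = 5.8e-06). In sub-libraries 2 and 3, where conventional liver does not list it, its germ-free A was 0.25 and 1.16. In sub-library 1, where germ-free liver does not list it, it read 2.46 in conventional liver and 2.91 in HepG2. EH38D3158849 met the rule in sub-library 4 at 1.74 and 0.08 and read 1.96 and 1.40 in sub-library 1, where the difference did not pass (edgeR adjusted p = 0.092). In sub-library 3 it read 0.96 and 0.59 (edgeR adjusted p = 0.53). Germ-free A was 0.61 in sub-library 2, where conventional liver does not list it. In sub-library 5, where germ-free liver does not list it, it was below the median negative control, with conventional A of -1.58 (-1.83 to -1.17 over 3 libraries) and HepG2 A of -1.02. None of the 4 names met the rule in every sub-library that judged it.

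Names with consecutive numbers were used to look for members that lie side by side in the naming scheme, without their positions. Of the members, 264 had a judged region with the number before or after in the same or another sub-library. Among these 276 neighbours 8 were members (2.90%, against 3.95% of all judged regions), and their median A was 0.27 (conventional) and 0.98 (germ-free). The 4 pairs formed by the 8 include EH38D4841318sub4 and EH38D4841319sub4, with conventional A of 2.23 and 2.52, germ-free A of -0.50 and -0.31 and HepG2 A of 4.18 and 4.23. EH38D5427112sub1 and EH38D5427113sub1 were as alike, at 2.40 and 2.44, 0.19 and 0.39, and 1.75 and 1.60. EH38D5082156sub5 and EH38D5082157sub5 differed, at 2.65 and 5.86 in conventional liver and 0.37 and 3.19 in HepG2. The tables name regions by identifier alone, so no position, gene or sequence is given here.

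Depth limits what low germ-free activity can mean. The median member had a mean of 151 RNA counts in germ-free liver, at a median DNA count of 253, and 191 members had fewer than 20 RNA counts in at least 1 germ-free library, 103 of them in sub-library 5. Regions under 10 RNA counts in a library are not listed, so lower germ-free levels could not be read. Median DNA counts of members (255 conventional, 253 germ-free) were near those of judged regions (245 and 270).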

How the data were processed

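MPRA counts from 82 libraries were used. The deposited values are counts per region and library, whole numbers with no normalization. The authors used BWA and hg38, per the submitters' processing notes, which also name DESeq2 1.42.1 and edgeR 4.0.16. Collapse by molecular identifier is not stated, so counting precision covers counting error only. The number of per-sample columns not used in these tables was 0. Columns of germ-free sub-library 3 were matched by library name, since header and title numbers differ. RNA-seq tables were not used here.

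A was computed as in the report. Each sub-library was fitted by edgeR 4.0.16 (robust quasi-likelihood, TMM, mean DNA count of at least 10), with RNA against DNA or its interaction with the system. Benjamini-Hochberg adjustment ran over all sub-libraries, at 0.05. R 4.3.3, DESeq2 1.42.0, Python 3.11.15 and pandas 2.3.3 were used, and the fits were tested on simulated data. The per-library A divides 1 RNA library by the mean DNA CPM. SE is the log2 value over the root of F.

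Members and lists were chosen with earlier results of these data known. Named regions were, per sub-library, the 3 with the largest difference among members that met the thresholds in every library. Added to them were the 5 highest and lowest in HepG2 (DNA count of at least 50), those next to each threshold, names listed elsewhere, the 2 highest and lowest in Hep3B against HepG2, and the 3 most carried by 1 library. The consecutive pairs were chosen after their values were seen.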

Additional observations from a re-analysis of the deposited data

Results flagged for a closer look

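In the edgeR test of RNA over DNA with the line, 11 named members differed between Hep3B and HepG2 at an adjusted p under 0.05, most of them lower in Hep3B. The log2 difference was -6.20 for EH38D5784227sub2, -5.90 for EH38D3585405sub2, -5.37 for EH38D5457458sub2, -4.85 for EH38D5572448sub2 and -4.28 for EH38D5812917sub2. It was -3.63 for EH38D3910268sub2, -3.03 for EH38D3714938sub2, -2.26 for EH38D3876873sub2 and -1.77 for EH38D3645562sub2. It was 1.41 for EH38D3734322sub2 and 1.35 for EH38D5713331sub2, the pair higher in Hep3B. Several of these regions were named because they were high in HepG2 or differed between the lines. In the 13 groups of 4 liver libraries of named regions, 0 had a library apart from the others by Dixon's criterion. Smaller groups were not tested, which leaves out germ-free liver and the conventional liver of sub-libraries 2, 3 and 5.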

How the results depend on the processing

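The set held 2064 members, and 1128 with a DNA minimum of 200, 738 with thresholds of 2 and 0, and 834 with the thresholds met in every library, all 3 being stricter by construction. Centring on all regions gave 3025 regions, 1687 of them members, and no centring gave 1564, 676 of them members. Without germ-free replicate 1, an alternative chosen after seeing the data, the count was 2456, with 1940 members kept, and 1041 of 2371 (43.9%) reached 1.5 in HepG2. Leaving out 1 liver library gave 373 to 585 in sub-library 1, 252 to 396 in 2, 183 to 262 in 3, 390 to 509 in 4 and 592 to 818 in 5. Members at 1.5 or more in HepG2 numbered 331 of 720 under thresholds of 2 and 0 and 358 of 815 under those met in every library. The HepG2 median was 1.10 centred on all regions, 1.37 under thresholds of 2 and 0, 1.38 without sub-library 5 (added after seeing the data), and 1.28 to 1.34 without 1 HepG2 replicate. Hep3B higher calls were 64 with negative control scaling and 47 of 98 with a DNA minimum of 50. Calls between Hep3B and HepG2 were 78. With a DNA minimum of 50 they were 39, of which 26 lower. Without 1 replicate they ranged from 48 to 99, the lower ones from 41 to 84 and the higher ones from 7 to 19. Higher calls were 25 with library size alone and 8 with negative control scaling. HepG2 lower calls were 87 with library size alone.

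A replicate block over the RNA libraries of both lines left out the DNA libraries, so it compares RNA alone and changes 2 choices. It called 171 members (59.8%, against 21.9% of all regions), of which 147 lower (51.4%, against 9.74%). With a replicate block of RNA and DNA libraries within each liver, 1980 members were lower in germ-free liver, against 1989. Same-numbered RNA and DNA libraries did not deviate together (r of -0.05 to 0.04 over 30 pairs, none over 0.1), and 12 of 30 correlated best with their own number.

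Sign changes among named regions were 5, and the cause was not tested. In HepG2, EH38D2575372sub4 read -0.26 with library size alone and EH38D5713331sub2 0.027 with negative control scaling. Between the livers, without the high conventional replicate, EH38D5578681sub2 read 0.80, EH38D5668312sub2 1.97 and EH38D3910268sub2 2.01. Over the settings without 1 replicate the log2 difference ranged from -5.15 to 0.80, -3.72 to 1.97 and -2.18 to 2.01 in these 3.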
